A study of Mus musculus with 32 samples.

Results

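The comparison set microglia from a cortical stab wound, 4 days after the injury, against microglia from the matching site of the opposite, non-injured hemisphere of the mouse cortex. Its members were the 8 of 32 samples labelled day 4, of which 4 came from the wound and 4 from the non-injured side, with 2 female and 2 male samples on each side. The paired count columns of each sex and side differed by little more than counting noise (median chi-square with 1 degree of freedom 0.475 to 0.504 in the 4 groups, against 0.455 for counting noise alone), so each pair of columns was summed and counted as 1 sample. This left 4 of 16 libraries, a female and a male one from the wound and a female and a male one from the non-injured side. All mice were C57BL/6 adults, heterozygous for Cx3cr1CreER, a tamoxifen-dependent Cre recombinase driven from the locus of the fractalkine receptor. At 8 to 10 weeks of age all had received tamoxifen at 180 mg/kg on each of 5 days, which turned on the yellow fluorescent protein EYFP, and were then wounded. The non-injured side was therefore taken from wounded, tamoxifen-treated mice carrying the same allele, and no library of unwounded mice was used here. Cells were sorted by their EYFP. The Cx3cr1 driver is also active in monocytes and in macrophages of the brain borders, so the sort does not by itself separate these from microglia. The labels do not say which samples came from separate animals or how many mice were pooled. The p-values measure how far the effect of injury differed between female and male libraries, over days 1, 4, 7 and 14.

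Microglia are the resident macrophages of the brain. At rest they survey the tissue with fine processes and express a set of so-called homeostatic genes, among them the purinergic receptor gene P2ry12 and Tmem119. Around a wound they extend towards the damage, proliferate, engulf debris, and shift to genes of lysosomes, lipid handling and cytokines, a state described in disease models as disease-associated microglia, while monocytes may enter from the blood.

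Library totals at day 4 ran from 30696983 to 55378788 estimated reads. Mitochondrially encoded genes took 1.43% of the female wound library, 1.16% of the female non-injured library, 6.89% of the male wound library and 25.7% of the male non-injured library. The 12 microglial markers summed to 49754 and 20702 CPM at the wound against 63599 and 11958 CPM on the non-injured side, with the female library given first here and throughout. No microglial marker was at 0 in any of the 4 libraries. The 18 neuronal markers summed to 918 and 1454 CPM at the wound against 788 and 12069 CPM on the non-injured side, and the male non-injured library was the highest of the 4. All levels are given in CPM, the count of a gene scaled to a common library size, and they are compared between libraries, not between genes.

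At the wound, 584 of 28597 genes changed (2.04% of those tested, edgeR's quasi-likelihood test, Benjamini-Hochberg adjusted p under 0.05). Of the genes tested, 435 rose (1.52%) and 149 fell (0.521%), and 561 of the 584 are protein-coding. Each called gene changed by at least 2-fold. Both wound libraries lay above both non-injured ones for 430 of the 435 genes that rose, against 15.0% of all genes tested. Both lay below for 47 of the 149 that fell, against 13.4%. Over all genes tested the median log2 change was -0.20, and for the 9596 genes with a day 4 mean of 10 CPM or more it was 0.21. Among those 9596, 3.86% rose and 1.28% fell, and both wound libraries lay above both non-injured ones in 23.6% and below them in 7.49%. In bulk RNA, fewer cells of a type and less RNA per cell cannot be told apart.

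How far the count of changed genes rested on each sex was uneven. Without the day 4 male pair of libraries 36 genes were called, of which 31 were among the 584. Without the female pair 445 were called, of which 271 were among the 584. The test takes its spread from how far the effect of injury differed between females and males of 1 day, over days 1, 4, 7 and 14, and when the pairing of the libraries by sex was left out 5 genes were called.

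Ranked by the smaller of the female and male ratios, the named rises were, in order, Spp1, Gpnmb, Lgals3, Arg1, Cd5l, Ch25h, Adam8, Hmox1, Acp5, Anxa2, Rab7b and Lilrb4a. Spp1 encodes osteopontin, a secreted phosphoprotein of matrix and inflammation (chr5:104435118-104441050, plus strand, GRCm38), and stood at 29152 and 42746 CPM at the wound against 25.1 and 256 CPM on the non-injured side (log2 change 8.77, SE 1.262, adjusted p = 0.0186). Gpnmb, a lysosomal glycoprotein of lipid-laden macrophages (chr6:49036546-49070929, plus strand), stood at 1765 and 1888 against 1.84 and 14.2 CPM (log2 change 8.34, SE 1.701, adjusted p = 0.0443). Lgals3, the galectin that marks damaged lysosomes (chr14:47367751-47386160, plus strand), stood at 641 and 1666 against 2.93 and 12.8 CPM (log2 change 7.37, SE 1.16, adjusted p = 0.0239). In these 3 genes the non-injured male library was above the non-injured female one, and the wound libraries lay far above both. The ranges of the sides did not overlap.

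**Figure D1:**
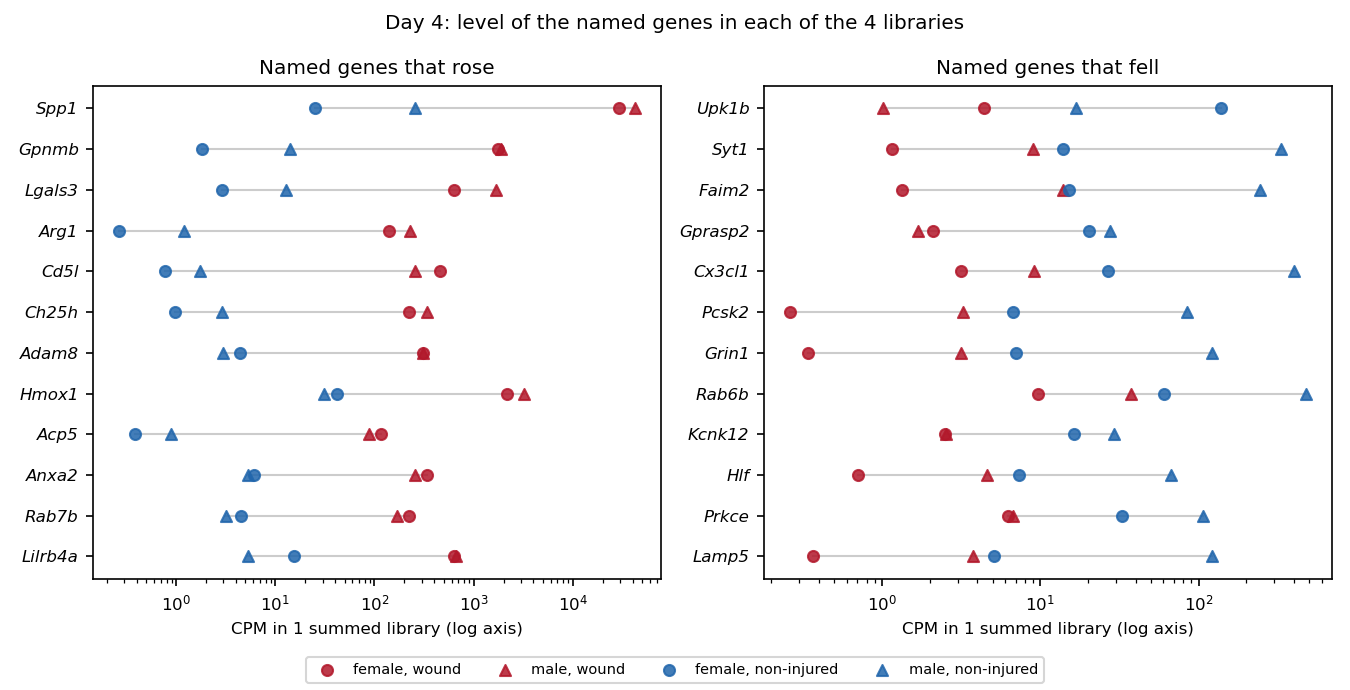
Level of the 24 named genes in each of the 4 day 4 libraries, in CPM on a log axis, with 12 genes that rose on the left and 12 that fell on the right. Red symbols are wound libraries, blue symbols non-injured ones, circles female and triangles male. The wound symbols lie to the right of both non-injured symbols for every gene on the left, and every fall on the right except Upk1b has its highest value in the male non-injured library.

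Arginase 1 and the apoptosis inhibitor of macrophages were close to absent from the non-injured side. Arg1, which turns arginine into ornithine (chr10:24915221-24927484, minus strand), stood at 139 and 229.5 against 0.266 and 1.202 CPM (log2 change 8.17, SE 0.74, adjusted p = 0.00613). Cd5l, a secreted scavenger protein of macrophages, stood at 462 and 254 against 0.779 and 1.74 CPM (log2 change 8.23, SE 0.77, adjusted p = 0.00613). Ch25h, which makes 25-hydroxycholesterol, stood at 224 and 339 against 0.983 and 2.91 CPM (log2 change 7.32, SE 1.15, adjusted p = 0.0237). Both wound libraries were high and both non-injured libraries close to 0 for these 3 genes. Adam8, a membrane metalloproteinase of leukocytes, stood at 305 and 307 against 4.43 and 2.99 CPM (log2 change 6.36, SE 0.72, adjusted p = 0.0103). Acp5, the tartrate-resistant acid phosphatase of osteoclasts and activated macrophages, stood at 115 and 87.1 against 0.389 and 0.892 CPM (log2 change 7.44, SE 1.32, adjusted p = 0.0284). Rab7b, a small GTPase of late endosomes, stood at 224 and 168 against 4.55 and 3.22 CPM (log2 change 5.66, SE 0.77, adjusted p = 0.0166). In these 3 the female and male libraries of a side lay close together and the sides did not overlap. Lilrb4a, an inhibitory receptor whose reads may be shared with its close copies, stood at 639 and 668 against 15.6 and 5.35 CPM (log2 change 6.09, SE 0.79, adjusted p = 0.01504). Anxa2, an annexin with similar pseudogenes in the genome, stood at 336 and 256 against 6.11 and 5.31 CPM (log2 change 5.69, SE 0.76, adjusted p = 0.0164).

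Genes for heme, iron and oxidant handling included the smallest p-value of the whole comparison. Of 25 members tested, 7 rose and 0 fell, with a median log2 change of 1.46, and 21 of 25 were higher at the wound in both pairs, against 25.0% of all genes tested. Leaving out the male pair, 3 rose. Hmox1, heme oxygenase 1, which opens the heme ring (chr8:75093621-75100589, plus strand), stood at 2161 and 3181 against 41.6 and 31.3 CPM (log2 change 6.18, SE 0.42, adjusted p = 0.00276). Blvrb, which encodes biliverdin reductase B, stood at 90.96 and 129 against 27.5 and 16.01 CPM (log2 change 2.35, adjusted p = 0.0453). Both iron-storage chains rose. Ftl1, the ferritin light chain, which shares reads with a pseudogene, stood at 24086 and 37182 against 2516 and 1540 CPM (log2 change 3.93, adjusted p = 0.007703), and Fth1, the heavy chain, stood at 8958 and 26017 against 1788 and 8068 CPM (log2 change 2.01, adjusted p = 0.0284). The male libraries held more Fth1 than the female ones on both sides. Txnrd1, a thioredoxin reductase, stood at 69.1 and 259.7 against 19.9 and 46.95 CPM (log2 change 2.13, adjusted p = 0.0405), and Prdx1, a peroxiredoxin with similar pseudogenes, at 831 and 2983 against 84.3 and 292 CPM (log2 change 3.33, adjusted p = 0.0103). Lcn2, lipocalin 2, which binds bacterial iron carriers, was the last of the 7, at 6.31 and 44.1 against 0.143 and 0.349 CPM. Lcn2 is also on the list of neutrophil markers. Slc40a1, the iron exporter ferroportin, was not called, at 264 and 250.2 against 385 and 96.8 CPM, with female and male pairs in opposite directions. The antioxidant response element, searched as TGACNNNGC on both strands within 250 bases upstream and 50 downstream of the start site in RefSeq promoters of GRCm38.p6, was present in 6 of 19 matched members of this list and in 2 of the 6 matched members that rose. It was present in 12.4% of all 32851 promoters and in 14.0% of 27025 genes. The stretches of these 2 are shown because both genes rose and carry the element, with the matching letters in capitals as read on the opposite strand.
Txnrd1 (chr10:82859074-82859162, plus strand): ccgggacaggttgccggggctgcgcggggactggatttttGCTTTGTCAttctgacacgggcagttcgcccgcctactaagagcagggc
Prdx1 (chr4:116685426-116685514, plus strand): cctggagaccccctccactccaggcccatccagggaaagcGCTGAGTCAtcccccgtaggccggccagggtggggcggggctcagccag

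**Figure D2:**
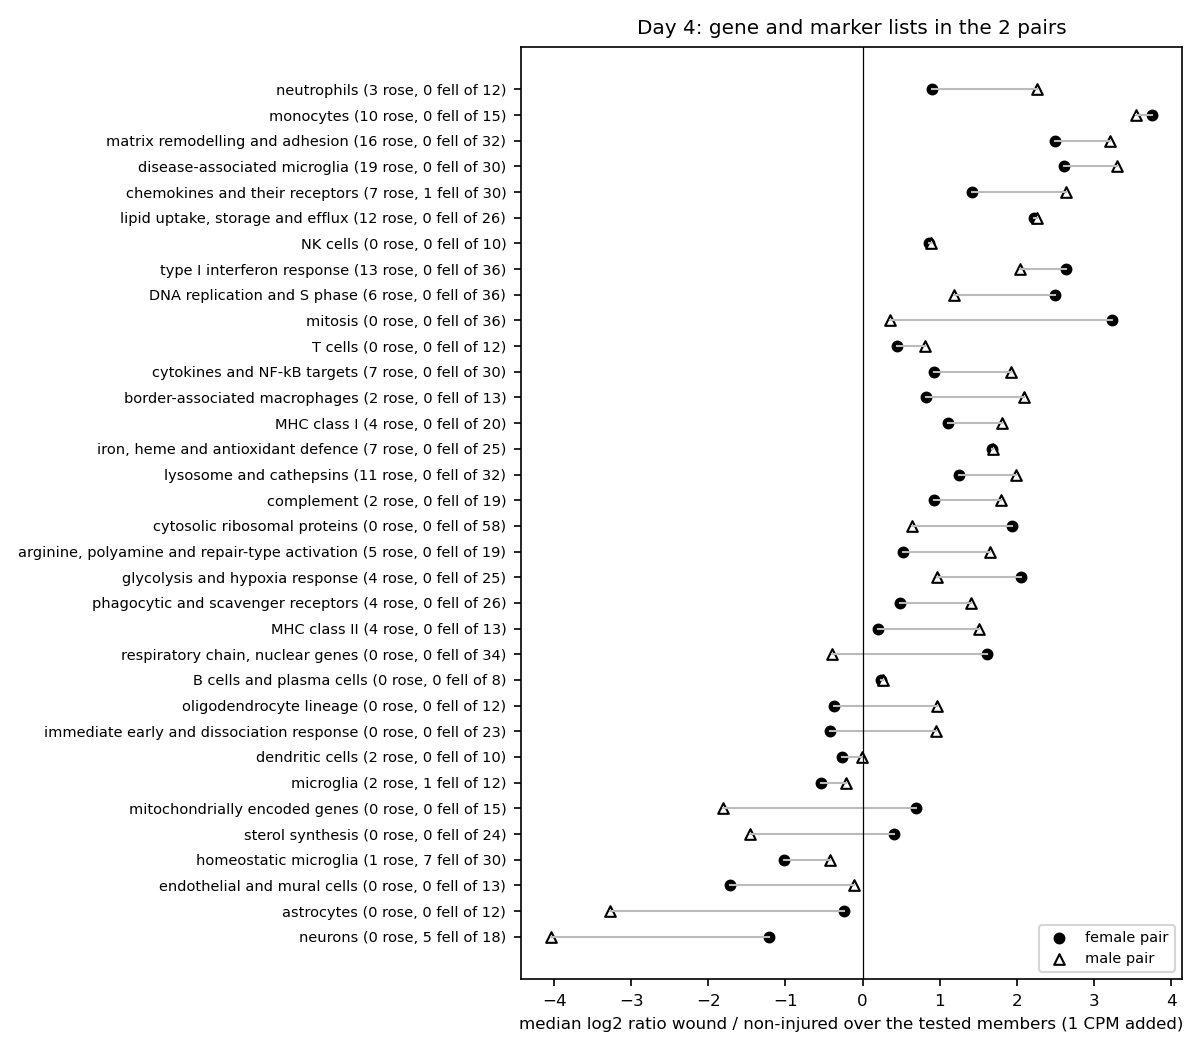
Median log2 ratio of wound to non-injured (1 CPM added) over the tested members of 22 gene lists and 12 marker lists, in the female pair (filled circles) and the male pair (open triangles). Lists are ordered by the median log2 change of the fit. Matrix, disease-associated, lipid, interferon and monocyte lists lie above 2 in both pairs, and the mitosis, respiratory chain, mitochondrial, astrocyte and neuron lists show the widest gaps between the pairs.

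Genes of the disease-associated state rose. Of 30 members, 19 rose and 0 fell, 28 were higher in both pairs (25.0% of all genes tested were), and the median log2 change was 2.85. Without the male pair 7 rose. Lpl, lipoprotein lipase, stood at 631 and 296 against 18.2 and 40.05 CPM (log2 change 4.001, SE 0.54, adjusted p = 0.0166). Clec7a, the beta-glucan receptor dectin-1, stood at 195 and 168 against 14.8 and 4.11 CPM (log2 change 4.44, SE 0.54, adjusted p = 0.0115). Igf1, a growth factor, stood at 257 and 215 against 13.7 and 3.72 CPM (log2 change 4.94, SE 0.52, adjusted p = 0.00999). In Clec7a and Igf1 the male non-injured library was the lowest of the 4. Cst7, a cathepsin inhibitor, stood at 146 and 424 against 14.1 and 24.1 CPM (log2 change 3.76, adjusted p = 0.0326), and Cd63, a tetraspanin of late endosomes, at 1496 and 2766 against 139 and 236 CPM (log2 change 3.49, adjusted p = 0.00942). Lyz2, lysozyme, which monocytes also express strongly, stood at 12161 and 14985 against 514 and 172 CPM (log2 change 5.502, adjusted p = 0.0247). Tyrobp, the signalling adaptor of TREM2, rose (log2 change 2.21, adjusted p = 0.0288, with 1772 and 2923 against 645 and 374 CPM). The receptor itself was not called: Trem2 stood at 1589 and 987 against 1154 and 264 CPM, higher at the wound in both pairs but with the male wound library below the female non-injured one. Apoe, the lipid carrier, was also not called, at 53966 and 12206 against 3204 and 8666 CPM, with the male non-injured library above the female non-injured one. Axl and Itgax, a receptor for dying cells and an integrin chain, were not called either, at 422 and 166 against 40.4 and 103 CPM and 56.5 and 21.7 against 15.9 and 4.07 CPM.

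Genes of lipid uptake and storage rose alongside the disease-associated list, with which they share Lpl, Fabp5, Ch25h and Apoe. Of 26, 12 rose and 0 fell (median log2 change 2.60, 3 called without the male pair). Plin2, which coats lipid droplets, stood at 1586 and 1314 against 55.4 and 20.8 CPM (log2 change 5.397, SE 0.48, adjusted p = 0.00613). Msr1, a scavenger receptor for modified lipoproteins, stood at 325 and 551 against 12.6 and 3.45 CPM (log2 change 5.85, SE 0.95, adjusted p = 0.0247). Soat1, which esterifies cholesterol for storage, stood at 462 and 216 against 114 and 50.6 CPM (log2 change 2.06, adjusted p = 0.0404). Each had both wound libraries above both non-injured ones. Lipa and Npc2, which free cholesterol inside lysosomes, also rose (3.05 and 1.97 on the log2 scale), as did Abcg1, which exports it (1.68). Apoc2, the cofactor of lipoprotein lipase, went from 0.287 and 0.233 CPM on the non-injured side to 197 and 39.6 CPM at the wound. The exporter Abca1 was not called, at 1487 and 585 against 605 and 145 CPM. Of 24 genes of sterol synthesis, 0 rose and 0 fell by edgeR's test, with 1 at an unadjusted p under 0.05 and 0 called by DESeq2. The median ratio of that list was 0.41 in the female pair and -1.46 in the male pair, and the direction differed between them. Its members were highest in the male non-injured library, for example Cyp51, lanosterol demethylase, at 22.03 and 18.9 CPM at the wound against 16.04 and 138 CPM.

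Lysosomal genes rose in part. Of 32, 11 rose and 0 fell, with a median log2 change of 1.42 (2 rose without the male pair). Of these 32, 28 were higher in both pairs, against 25.0% of all genes tested. Of the called members, Cd63, given above, had the largest log2 change. Among the cathepsins, the proteases of the lysosome, 6 rose and 5 were not called. Ctsb stood at 31223 and 19283 against 5161 and 1152 CPM (log2 change 3.33, SE 0.41, adjusted p = 0.0115) and Ctsd at 66016 and 39816 against 18219 and 2176 CPM (log2 change 3.03, SE 0.49, adjusted p = 0.0247). Ctsl, Ctsz, Ctsc and Ctsh rose by 2.68, 2.37, 1.92 and 1.82 on the log2 scale. In all 6 the male non-injured library was the lowest. Ctsa, Ctss and Ctsk were higher at the wound in both pairs without a call, at 4373 and 1823 against 2269 and 336, 9828 and 9389 against 7856 and 1868 and 2.33 and 7.73 against 0.369 and 0.775 CPM. Ctsf and Ctso were lower in both pairs without a call, at 298 and 81.5 against 483 and 173 and 153 and 75.98 against 185 and 168 CPM. Cd68, a heavily glycosylated membrane protein of macrophage lysosomes, stood at 2918 and 2758 against 1248 and 272 CPM (log2 change 2.28, adjusted p = 0.0443). The sugar-cleaving enzymes Gusb and Galns rose by 2.18 and 3.002. Of the 26 phagocytic and scavenger receptors 4 rose: Msr1, Clec7a, the multi-ligand receptor Stab1 (1293 and 384 against 546 and 88.9 CPM, log2 change 1.67, adjusted p = 0.0479) and Gas6, the bridge between dying cells and the TAM receptors (1213 and 1182 against 264 and 147 CPM, log2 change 2.602, adjusted p = 0.0201). Of that list 1 rose without the male pair. Of the 19 complement genes 2 rose, the C1q chain C1qa (9524 and 6630 against 4500 and 1470 CPM, log2 change 1.63, adjusted p = 0.0385) and the anaphylatoxin receptor C3ar1 (1237 and 716 against 426 and 44.2 CPM, log2 change 2.76, adjusted p = 0.0456). C3 itself stood at 34.8 and 10.2 against 0.717 and 0.233 CPM and was not called. The complement list had 0 rises without the male pair.

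Matrix and adhesion genes had a median log2 change of 3.46 over 32 members, of which 16 rose and 0 fell, and 4 rose without the male pair. Fn1, fibronectin, stood at 1849 and 238 against 15.2 and 9.81 CPM (log2 change 5.82, SE 0.99, adjusted p = 0.0284). Thbs1, thrombospondin 1, stood at 484 and 169 against 16.98 and 3.53 CPM (log2 change 5.15, SE 0.63, adjusted p = 0.0115). Cd44, the hyaluronan receptor, stood at 123 and 83.3 against 3.42 and 2.75 CPM (log2 change 5.06, SE 0.899, adjusted p = 0.0307). All 3 were highest in the female wound library, Fn1 by the widest margin, and all were separated between the sides. Fn1, Thbs1, Cd44 and the integrin chain Itgal also stand on the list of monocyte markers. Emilin2, an elastin-fibre glycoprotein, stood at 135 and 132 against 3.13 and 1.74 CPM (log2 change 5.76, adjusted p = 0.0161), Tgfbi, a matrix protein induced by TGF-beta, at 674 and 235 against 92.5 and 8.801 CPM (log2 change 3.74, adjusted p = 0.0247), and Lgals1, galectin 1, at 344 and 808 against 6.27 and 35.98 CPM (log2 change 5.11, adjusted p = 0.0274). The urokinase receptor gene Plaur (84.6 and 61.5 against 14.4 and 4.89 CPM, log2 change 3.05, adjusted p = 0.0166) and the intermediate filament gene Vim (178 and 282 against 7.62 and 19.7 CPM, log2 change 4.19, adjusted p = 0.0401) rose. The collagenase Mmp8, which neutrophils also carry, was at 27.8 and 31.4 against 0.102 and 0.271 CPM, and the protease inhibitor Timp1 at 5.79 and 20.3 against 0.143 and 0.543 CPM. Both rose, from few counts on the non-injured side. Timp3, another inhibitor of that family, was not called, at 8.91 and 12.1 against 21.2 and 142 CPM.

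The type I interferon response was higher at the wound in all 36 of its 36 members in both pairs, against 25.0% of all genes tested, and 13 rose in the test. The median log2 change was 2.35, and without the male pair 0 were called. These genes are switched on downstream of the interferon receptor at interferon-stimulated response elements. That element, searched on both strands as GAAA and GAAA with NN between them in the same promoter windows, was present in 17 of 26 matched members and in 7 of the 11 matched members that rose, against 3.44% of all promoters and 3.99% of 27025 genes. The stretches below are from 5 of the genes that rose, read 5′ to 3′ on the strand of the gene, with the matching letters in capitals. In Rsad2 the capitals are the element read on the opposite strand.
Isg15 (chr4:156200847-156200936, minus strand): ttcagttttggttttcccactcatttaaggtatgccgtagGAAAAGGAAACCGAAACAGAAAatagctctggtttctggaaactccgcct
Oas1a (chr5:120907526-120907585, minus strand): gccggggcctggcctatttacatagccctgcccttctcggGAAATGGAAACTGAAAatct
Rsad2 (chr12:26456523-26456612, minus strand): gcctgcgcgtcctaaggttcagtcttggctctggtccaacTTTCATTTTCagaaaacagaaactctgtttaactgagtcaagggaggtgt
Bst2 (chr8:71537553-71537642, minus strand): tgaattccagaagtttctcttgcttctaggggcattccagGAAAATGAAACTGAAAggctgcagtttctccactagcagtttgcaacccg
Cxcl10 (chr5:92349053-92349139, minus strand): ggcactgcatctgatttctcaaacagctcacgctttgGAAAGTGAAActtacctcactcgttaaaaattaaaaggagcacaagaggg

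Isg15, a ubiquitin-like modifier that carries 3 overlapping matches, stood at 20.6 and 43.7 CPM at the wound against 1.45 and 5.27 CPM (log2 change 3.402, SE 0.61, adjusted p = 0.0319). Rsad2, the antiviral enzyme viperin, stood at 61.2 and 92.03 against 3.83 and 4.19 CPM (log2 change 4.22, SE 0.63, adjusted p = 0.0213). Oas1a, which makes the activator of RNase L and shares reads with close copies, stood at 219.7 and 191 against 16.8 and 31.1 CPM (log2 change 3.16, SE 0.53, adjusted p = 0.0268). For these 3 genes both wound libraries were well above both non-injured ones, in the female and the male pair alike. Bst2, tetherin, stood at 345 and 895 against 61.8 and 97.1 CPM (log2 change 2.84, adjusted p = 0.0251), and Ifitm3, an inhibitor of viral entry, at 333 and 461 against 28.8 and 46.2 CPM (log2 change 3.43, adjusted p = 0.0298). Irf7, the factor that amplifies interferon production, stood at 209 and 209.7 against 15.7 and 34.5 CPM (log2 change 3.17, adjusted p = 0.0481), and Zbp1, a sensor of Z-form nucleic acids, at 86.2 and 71.6 against 2.42 and 4.92 CPM (log2 change 4.51, adjusted p = 0.0288). The DNA sensor genes Ifi204 and Ifi207, near copies of each other, rose by 3.61 and 4.05, and Ifit2, Oasl1 and Oasl2 by 3.08, 3.75 and 2.89 on the log2 scale. Irf9, a transcription factor of the pathway, was not called, at 152 and 52.3 against 124 and 36.3 CPM, with the male wound library below the female non-injured one.

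Antigen presentation genes were called for a minority. Of 20 MHC class I genes 4 rose, and of 13 MHC class II genes 4 rose, with median log2 changes of 1.54 and 0.86, and neither list had a call without the male pair. H2-K1 and H2-D1, the class I heavy chains, stood at 2147 and 2010 against 728 and 293 CPM (log2 change 2.17, adjusted p = 0.0272) and 4204 and 4145 against 1247 and 564 CPM (log2 change 2.31, adjusted p = 0.0358). Reads of these similar genes may be split between copies. The immunoproteasome genes Psmb8 and Psme2 rose by 1.95 and 2.05. The classical class II chains and the invariant chain moved together: H2-Aa stood at 369 and 204 against 15.9 and 4.34 CPM (log2 change 4.99, adjusted p = 0.0268), H2-Ab1 at 809 and 269 against 54.8 and 10.5 CPM (log2 change 4.26, adjusted p = 0.0237), and Cd74, the invariant chain, at 1511 and 521 against 134 and 14.4 CPM (log2 change 4.301, adjusted p = 0.0237). H2-Eb1 rose by 4.84. H2-DMa and H2-Oa, also on the class II list, were not called, at 256 and 162 against 286 and 77.3 CPM and 16.1 and 5.95 against 46.1 and 8.68 CPM. In the fit without pairing and without the male non-injured library the median of the class II list was -0.20.

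Of 30 chemokine and receptor genes 7 rose and 1 fell (median log2 change 2.65, with 2 rising without the male pair), and of 30 cytokine and NF-kB genes 7 rose and 0 fell (median 1.70, with 1). Ccl12 and Ccl2, which attract monocytes through CCR2, stood at 205 and 638 against 21.04 and 88.3 CPM (log2 change 3.07, adjusted p = 0.0115) and 180 and 821 against 47.2 and 44.7 CPM (log2 change 3.06, adjusted p = 0.0491). Cxcl10, an attractant of T cells that interferon induces, stood at 132 and 184 against 7.29 and 11.2 CPM (log2 change 4.11, adjusted p = 0.0209), and Cxcl16, a membrane-bound chemokine, at 404 and 352 against 101 and 48.7 CPM (log2 change 2.42, adjusted p = 0.0298). All of these were separated between the sides. Ccr2, the receptor of monocytes, stood at 82.02 and 19.4 against 5.16 and 0.814 CPM (log2 change 4.16, adjusted p = 0.0115). Cx3cl1, the neuronal ligand of Cx3cr1, was the member that fell (3.17 and 9.16 against 26.7 and 398 CPM, log2 change -4.36, adjusted p = 0.0368). Il1b and Tnf, the early inflammatory cytokines, stood at 107 and 55.3 against 14.4 and 2.37 CPM (log2 change 3.57, adjusted p = 0.0237) and 281 and 161 against 60.5 and 8.76 CPM (log2 change 3.14, adjusted p = 0.0368). Il1rn, the antagonist of interleukin 1 receptors, stood at 61.8 and 48.7 against 1.76 and 0.853 CPM (log2 change 5.38, adjusted p = 0.0103), and Csf1, a growth factor of microglia and other macrophages, at 232 and 193 against 36.4 and 18.5 CPM (log2 change 3.02, adjusted p = 0.0231). Il6 stayed low in every library, at 1.81 and 2.92 against 3.401 and 2.87 CPM, and the chemokine genes Ccl3 and Ccl4 were not called at 525 and 1150 against 258 and 88.05 CPM and 664 and 1159 against 296 and 67.7 CPM.

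In the arginine and repair-type list 5 of 19 tested members rose and 0 fell, with 3 rising without the male pair. Besides Arg1 and Igf1 these were Arg2, the mitochondrial arginase (8.25 and 16.6 against 0.123 and 1.396 CPM), Acod1, which makes itaconate (10.5 and 16.1 against 0.0615 and 0.582 CPM), and Chil3, a chitinase-like protein that monocytes also express (28.2 and 35.5 against 0.205 and 0.3102 CPM). All of these had very low levels on the non-injured side. Mrc1, the mannose receptor often grouped with them, was not called and ran the other way between sexes, at 162 and 9.99 against 314 and 3.22 CPM. Nos2, inducible nitric oxide synthase, was under 1 CPM in all 4 libraries. Of 25 genes of glycolysis and the hypoxia response 4 rose and 0 fell, with medians of 2.05 in the female and 0.96 in the male pair. Of these 25, 19 were higher in both pairs, against 25.0% of all genes tested. Without the male pair 1 rose. The pyruvate kinase gene Pkm stood at 4116 and 2072 against 451 and 681 CPM (log2 change 2.398, adjusted p = 0.0378), the lactate dehydrogenase gene Ldha at 1705 and 1092 against 202 and 304 CPM (log2 change 2.46, adjusted p = 0.0302), and Hif1a, the oxygen-sensed transcription factor, at 734 and 807 against 181 and 98.9 CPM (log2 change 2.52, adjusted p = 0.0247). The lactate exporter gene Slc16a3 rose by 2.36. Of the 58 genes of cytosolic ribosomal proteins edgeR's test called 0, with 47 at an unadjusted p under 0.05 and 20 called by DESeq2. Of these 58, 54 were higher in both pairs, against 25.0% of all genes tested, with medians of 1.94 in the female and 0.65 in the male pair.

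Proliferation genes were followed in a DNA replication list and a mitosis list. Of 36 genes of DNA replication 6 rose and 0 fell, 35 were higher in both pairs (25.0% of all genes tested were), and the median log2 change was 2.24. Of 36 genes of mitosis 0 rose and 0 fell by edgeR's quasi-likelihood test. In that list 15 were at an unadjusted p under 0.05, DESeq2 called 2, and 21 were higher in both pairs, against the same 25.0%. Pcna, the sliding clamp of the replication fork (chr2:132249162-132253314, minus strand), stood at 132 and 164 against 25.1 and 38.4 CPM (log2 change 2.25, SE 0.35, adjusted p = 0.0237). Mcm6, a subunit of the replicative helicase (chr1:128331590-128359664, minus strand), stood at 221 and 113 against 20.7 and 30.9 CPM (log2 change 2.65, SE 0.48, adjusted p = 0.0341). Cdc6, which loads that helicase, stood at 22.5 and 5.54 against 0.512 and 1.01 CPM (log2 change 4.23, SE 0.84, adjusted p = 0.0443). The highest library was the female wound one for Mcm6 and Cdc6, and the male wound one for Pcna. Chaf1b, a histone chaperone of replicated DNA, Tk1, thymidine kinase, and Rrm1, the large chain of ribonucleotide reductase, rose by 3.801, 2.86 and 2.103. The E2F element, searched as TTTCCCGC or TTTGGCGC on both strands, was present in 9 of 30 matched replication genes and 2 of the 6 that rose, against 1.56% of all promoters and 1.8% of 27025 genes. Those 2 are shown with the matching letters in capitals, in Cdc6 as read on the opposite strand.
Mcm6 (chr1:128359768-128359855, minus strand): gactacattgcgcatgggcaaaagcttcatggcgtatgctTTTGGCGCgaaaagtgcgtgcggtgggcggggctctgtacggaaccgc
Cdc6 (chr11:98907973-98908060, plus strand): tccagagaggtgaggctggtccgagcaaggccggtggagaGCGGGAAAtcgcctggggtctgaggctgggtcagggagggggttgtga

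In the mitosis list the pairs of libraries differed. The median ratio was 3.23 in the female pair and 0.35 in the male pair, and the summed levels were 2076 and 823 CPM at the wound against 189 and 687 CPM on the non-injured side. Mki67, the proliferation antigen, stood at 76.2 and 30.7 against 6.76 and 22.8 CPM. Top2a, the topoisomerase that untangles chromosomes, stood at 140.3 and 38.3 against 10.6 and 44.5 CPM, and Cdk1, the kinase that starts mitosis, at 64.1 and 49.5 against 4.96 and 22.6 CPM. In each of the 3 the female non-injured library was the lowest and the female wound library the highest, with both male libraries between them. The difference between the pairs was not tested, since each pair holds 1 library a side. In the fit without the male pair the median log2 change was 3.48 for the mitosis list and 2.86 for the replication list. Without the female pair these medians were 0.48 and 1.44. The replication list did not share the gap to the same degree, with median ratios of 2.50 in the female and 1.18 in the male pair. The sequence TTTGAA, the core of the cell cycle homology region of late cell cycle genes, was present in 23 of 30 matched mitosis genes. It was present in 17.9% of all promoters and in 20.2% of 27025 genes.

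**Figure D3:**
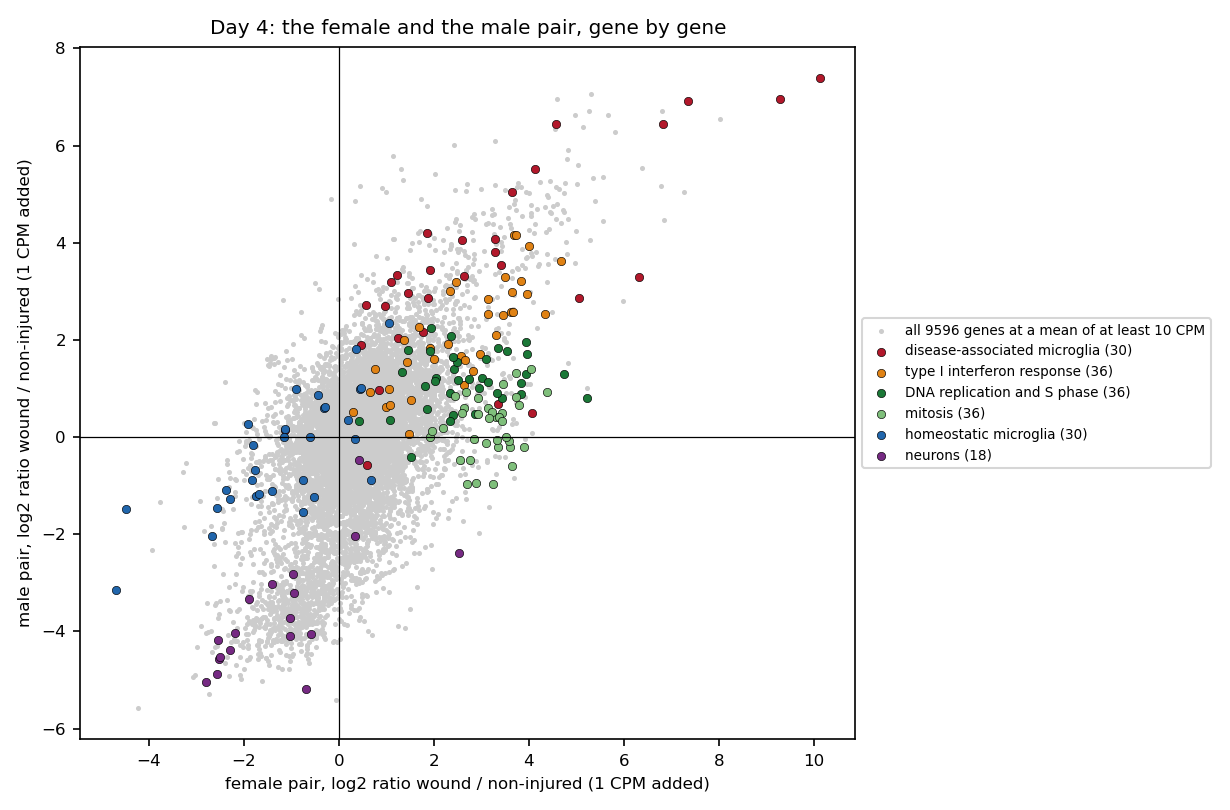
Log2 ratio of wound to non-injured (1 CPM added) in the female pair (horizontal axis) and the male pair (vertical axis), 1 point a gene. Grey points are the 9596 genes whose mean reached 10 CPM, and coloured points are the members of 6 lists, whose tested members number as given in the legend. Interferon genes lie in the upper right quadrant, mitosis genes spread along the horizontal axis at male ratios near 0, and neuronal markers lie mostly in the lower left quadrant with the larger drop in the male pair.

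Homeostatic genes were the list with the most falls. Of 30, 7 fell and 1 rose, 16 were lower in both pairs (28.1% of all genes tested were), and the median log2 change was -0.83. Tmem119 stood at 2097 and 578 against 7002 and 1346 CPM (log2 change -1.48, SE 0.28, adjusted p = 0.0365). Selplg, the P-selectin ligand, stood at 1409 and 529 against 6921 and 1292 CPM (log2 change -1.79, SE 0.33, adjusted p = 0.0343). Slc2a5, a fructose transporter, stood at 231 and 28.1 against 1480 and 119 CPM (log2 change -2.39, SE 0.38, adjusted p = 0.0237). Each was lower at the wound in both pairs, while the female wound library still lay above the male non-injured one, so the ranges of the sides overlapped. Cst3, cystatin C, an inhibitor of cathepsins, stood at 5873 and 4059 against 18882 and 9150 CPM (log2 change -1.43, adjusted p = 0.0442) without overlap. The orphan receptor gene Gpr165, which also fell, stood at 4.01 and 0.109 against 111 and 2.09 CPM. Upk1b, a tetraspanin of microglia (chr16:38773184-38800328, minus strand), had the largest smaller ratio of all falls, at 4.401 and 1.02 against 139 and 16.9 CPM (log2 change -4.68, SE 0.55, adjusted p = 0.01103). It was the only homeostatic member called without the male pair. Fcrls, a microglial Fc receptor-like gene, went the other way and rose (7731 and 2435 against 3701 and 478 CPM, log2 change 1.704, adjusted p = 0.03897).

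Several defining microglial genes were not called. P2ry12 stood at 1112 and 316 CPM at the wound against 5782 and 671 CPM, lower in both pairs, and Siglech, a sialic-acid lectin, at 607 and 161 against 2056 and 259 CPM. Sall1, the transcription factor of microglial identity, stood at 199.6 and 33.5 against 532 and 73.3 CPM. The female non-injured library was the highest for all 3. Csf1r, the receptor for Csf1 and Il34, stood at 11610 and 996 against 19741 and 1831 CPM, and Cx3cr1, the locus of the Cre driver, at 219 and 5.36 against 136 and 10.7 CPM, with the pairs in opposite directions for Cx3cr1. In the fit without pairing and without the female non-injured library the median of the homeostatic list was 0.70.

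Most genes that fell were highest in the male non-injured library, the library richest in neuronal and mitochondrial RNA. This held for 129 of the 149, and 20 were highest in the female non-injured library. In 122 of the 149 the male non-injured level was more than 5 times the female non-injured one, and in 107 the female non-injured level was below 10 CPM. The shares of all genes tested that meet these conditions were not counted, so the counts only describe the falls. Of the 149 falls, 123 had a day 4 mean of at least 10 CPM, as did 9596 of the 28597 genes tested. Syt1, the calcium sensor of synaptic vesicles, stood at 1.15 and 9.05 against 14.01 and 332 CPM (log2 change -4.62, SE 0.83, adjusted p = 0.0317). Grin1, the shared subunit of NMDA receptors, stood at 0.341 and 3.17 against 6.99 and 122 CPM (log2 change -5.04, SE 0.96, adjusted p = 0.0323). Pcsk2, a prohormone convertase, stood at 0.262 and 3.25 against 6.68 and 84.2 CPM (log2 change -4.68, SE 0.63, adjusted p = 0.0115). In Syt1 and Grin1, and likewise in Faim2 (1.34 and 14.01 against 15.2 and 246 CPM), Rab6b (9.64 and 37.4 against 60.6 and 479 CPM), Lamp5 (0.367 and 3.76 against 5.101 and 122 CPM) and Hlf (0.707 and 4.63 against 7.31 and 66.6 CPM), the male wound library lay above the female wound one and the male non-injured library far above the female one. Both non-injured libraries were nevertheless above both wound ones, which is what the naming rule required. Gprasp2, an adaptor that sorts receptors to lysosomes, stood at 2.096 and 1.68 against 20.3 and 27.4 CPM (log2 change -3.62, SE 0.57, adjusted p = 0.0237), Kcnk12, a potassium channel subunit, at 2.49 and 2.55 against 16.2 and 29.1 CPM (log2 change -3.09, SE 0.65, adjusted p = 0.0439), and Prkce, protein kinase C epsilon, at 6.26 and 6.71 against 33.01 and 107 CPM (log2 change -3.19, SE 0.59, adjusted p = 0.0348). For Gprasp2 and Kcnk12 the non-injured libraries were within a factor of 2 of each other.

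The marker lists of other cells give the setting of these falls. Of 18 neuronal markers 5 fell and 0 rose, and 15 were lower in both pairs, against 28.1% of all genes tested. The median ratio was -1.22 in the female and -4.04 in the male pair. Neuronal falls numbered 0 without the male pair. No neuronal marker was at 0 in any library. Of 12 astrocyte markers edgeR's test called 0 (3 at an unadjusted p under 0.05, 4 called by DESeq2), with sums of 611 and 1273 CPM at the wound against 544 and 8284 CPM on the non-injured side. Of these 12, 7 were lower in both pairs (28.1% of all genes tested were), 4 moved in opposite directions and 1 was higher in both. The medians were -0.24 in the female and -3.27 in the male pair. The 1 that was higher was Gfap, the filament protein that reactive astrocytes raise, at 247 and 563 against 5.61 and 281 CPM. Of 12 oligodendrocyte and 13 vascular markers it called 0 as well (3 and 1 at an unadjusted p under 0.05, 2 and 1 called by DESeq2). No member of these 3 lists was at 0. The oligodendrocyte sums were 776 and 2572 CPM at the wound against 1148 and 4686 CPM on the non-injured side, and the vascular sums 339 and 320.3 CPM at the wound against 496 and 337 CPM on the non-injured side. Mitochondrially encoded genes had medians of 0.70 in the female and -1.81 in the male pair, and nuclear genes of the respiratory chain 1.61 and -0.40. Of the 15 and 34 members edgeR's test called 0 (0 and 6 at an unadjusted p under 0.05, 0 called by DESeq2 in either list). The part of neuronal and mitochondrial RNA in the falls of other genes was not tested. When mitochondrially encoded genes were left out before scaling, 618 genes were called.

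**Figure D4:**
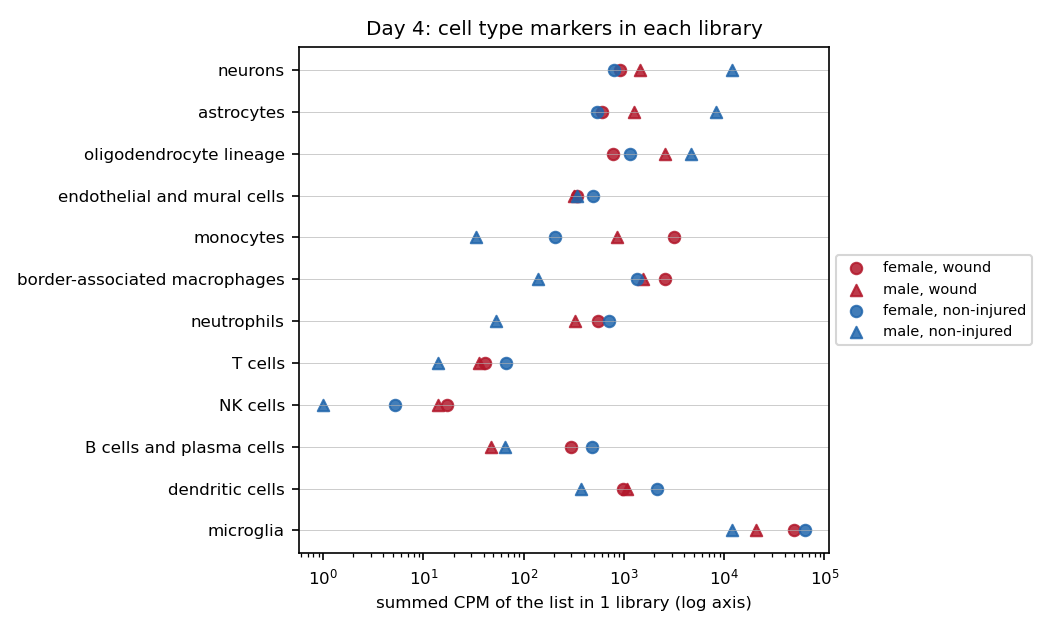
Summed CPM of each marker list in each day 4 library on a log axis, with red for wound, blue for non-injured, circles for female and triangles for male. The male non-injured library holds the highest neuronal sum, 12069 CPM, and the lowest monocyte sum, 33.2 CPM. The sum of the monocyte list is higher in both wound libraries than in both non-injured ones.

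Monocyte markers were higher at the wound. Of 15, 10 rose, and all 15 were higher in both pairs, against 25.0% of all genes tested. The sums were 3155 and 851 CPM at the wound against 208 and 33.2 CPM on the non-injured side. The female libraries thus held more of the list than the male ones on each side. Fn1, also on the matrix list, gave 1849 and 238 CPM of the wound sums. 4 of them rose without the male pair. Ly6c2, the surface antigen of inflammatory monocytes, whose reads may be shared with Ly6c1, stood at 31.6 and 83.02 against 0.164 and 0.582 CPM (adjusted p = 0.0103). Ms4a4c, a membrane protein of monocytes, stood at 61.1 and 68.3 against 3.01 and 4.34 CPM (log2 change 4.16, adjusted p = 0.0357), and Plac8 was not called at 5.11 and 23.1 against 1.13 and 4.92 CPM. No monocyte marker was at 0 in any library. Relative to the microglial marker sum of the same library, a ratio that can be compared between libraries only, the sums came to 6.34% and 4.11% at the wound and to 0.326% and 0.278% on the non-injured side. Of 13 markers of border macrophages 2 rose, Folr2 (77.9 and 53.2 against 10.3 and 1.36 CPM, log2 change 3.799, adjusted p = 0.0368) and Stab1. Without the male pair 0 of the 13 rose. The sums of the list were 2545 and 1543 CPM at the wound against 1365 and 139 CPM on the non-injured side. Stab1 gave 1293 and 384 against 546 and 88.9 CPM of these sums, and its sides overlapped. Of the 13, 7 were higher in both pairs (25.0% of all genes tested were) and 6 moved in opposite directions. Mrc1 and Cd163, among the 6, were lower at the wound in the female pair only. They stood at 162 and 9.99 against 314 and 3.22 CPM and at 9.2 and 1.86 against 52.4 and 0.31 CPM. Of 12 neutrophil markers 3 rose, S100a8, Retnlg and Lcn2, each highest in the male wound library (S100a8 at 3.25 and 78.02 against 0.04097 and 0.853 CPM), and 0 rose without the male pair. The sums of the neutrophil list were 549 and 325 CPM at the wound against 714 and 52.7 CPM on the non-injured side, lower at the wound in the female pair and higher in the male pair. Csf3r, the receptor for G-CSF, gave most of the sum in each library but the male wound one, at 530.2 and 86.7 against 714 and 50.5 CPM. Camp and Ltf, among other neutrophil granule genes, were at 0 or near it on the non-injured side. No T, NK or B cell marker was called by edgeR's test (1, 3 and 2 of them were at an unadjusted p under 0.05, and DESeq2 called 0, 1 and 1). Of 10 dendritic cell markers 2 rose, 0 fell and 0 rose without the male pair. The 2 were Bst2, also on the interferon list, and Ccr7, a chemokine receptor also on the chemokine list (7.702 and 3.25 against 0.102 and 0 CPM). The sums of the list were 982 and 1069 CPM at the wound against 2159 and 374 CPM on the non-injured side. Bst2 and Siglech, which is also a microglial marker, gave most of each sum. Siglech stood at 607 and 161 against 2056 and 259 CPM, and Bst2 at 345 and 895 against 61.8 and 97.1 CPM. For the T, NK and B cell lists the sums were 40.7 and 35.6 CPM at the wound against 67.4 and 14.1 CPM on the non-injured side for T cells, 17.03 and 14.1 CPM at the wound against 5.24 and 1.01 CPM on the non-injured side for NK cells and 295 and 47.3 CPM at the wound against 482 and 65.02 CPM on the non-injured side for B cells, where 8 of 9 markers were tested. The share of entering monocytes in the rises of Lyz2, Fn1, Thbs1, Cd44, Chil3, Ccr2, the class II genes and others was not tested.

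Set beside the other days, no gene passed the test of a difference in the effect of injury. Against day 1, against day 7 and against the mean of days 1, 7 and 14, edgeR's quasi-likelihood test called 0 genes each (0.0%), with smallest adjusted p-values of 0.393, 1 and 1 and with 1230, 358 and 508 genes at an unadjusted p under 0.05. DESeq2 called 55, 6 and 4 genes. Mitosis genes had their highest female median at day 4, 3.23 against 0.43, 2.25 and 0.36 on days 1, 7 and 14, and their highest male median at day 7, 1.78 against 0.35 at day 4. Lysosomal medians were -0.07 and -0.33 at day 1, in the female and the male pair, 1.25 and 1.99 at day 4, 1.68 and 1.29 at day 7 and 0.99 and 1.01 at day 14. Disease-associated medians were 1.02 and 0.42 at day 1, 2.62 and 3.30 at day 4, 2.58 and 1.87 at day 7 and 2.65 and 2.08 at day 14, so the female values of days 4, 7 and 14 lay close together and the male value was highest at day 4. Homeostatic medians lay furthest below 0 at day 1, -1.85 and -2.75, and stood at -1.01 and -0.42 at day 4. Interferon medians were 2.64 and 2.04 at day 4, the highest of the 4 days in each sex, and 0.86 and 1.08 at day 14. These values are descriptions of 1 library pair a day and sex.

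**Figure D5:**
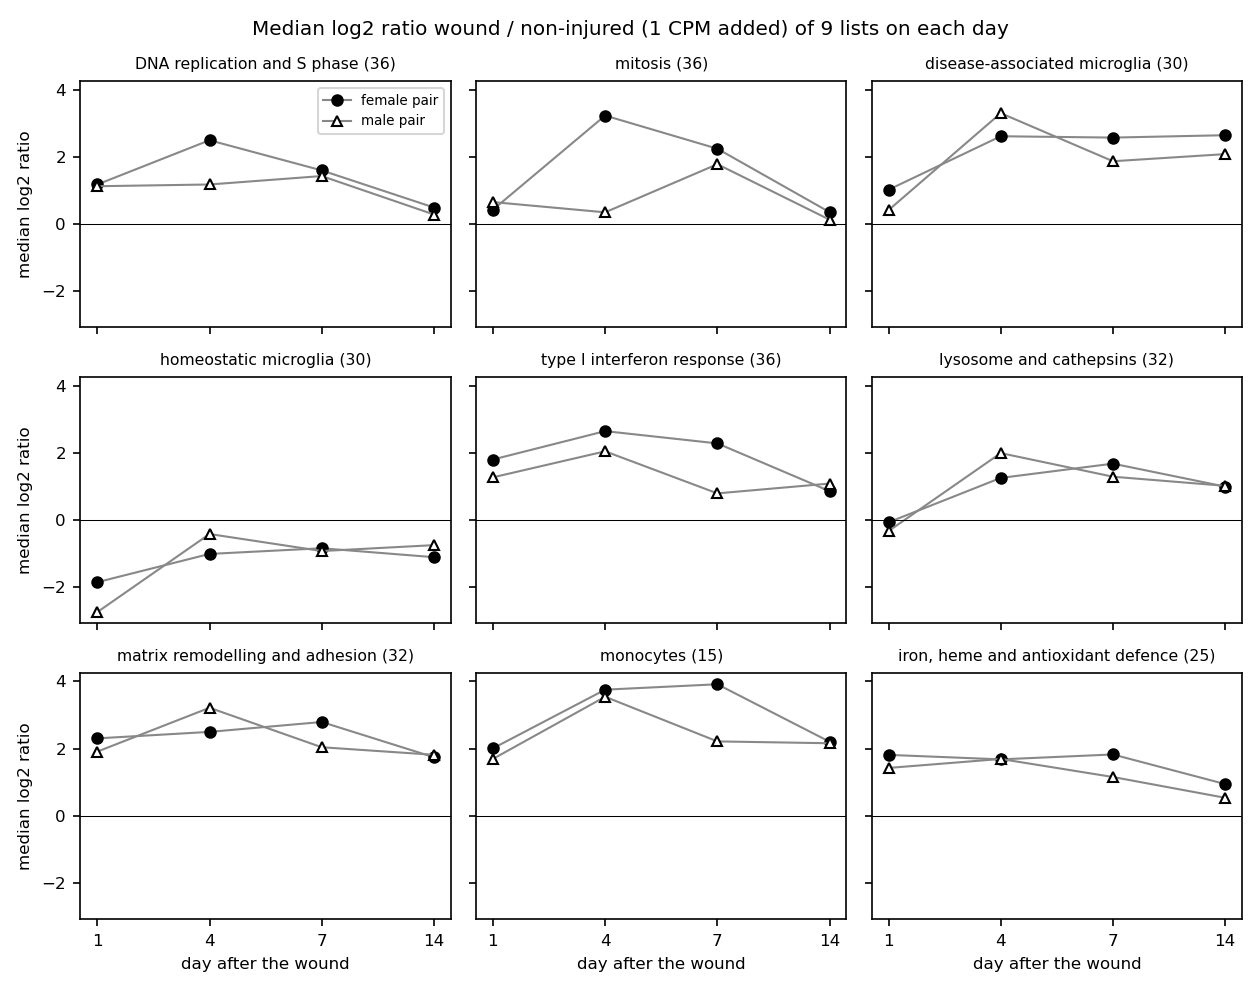
Median log2 ratio of wound to non-injured (1 CPM added) of 9 lists on days 1, 4, 7 and 14, with the female pair as filled circles and the male pair as open triangles, and the number of tested members in each title. Each point is a median over genes from 1 pair of libraries, without an error bar. The mitosis list at day 4 shows the widest gap between the sexes, 3.23 against 0.35.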

How the data were processed

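Polyadenylated RNA of EYFP-sorted cells had been turned into cDNA with SMART-Seq v4 and into libraries with Nextera XT, which keeps no strand, per the labels' protocols. The expected counts were estimated by the authors with Salmon 1.0.0, per the submitters' processing notes, and are not normalized. The authors also deposited TPM values and a day 4 table of log2 fold changes with adjusted p-values, with DESeq2 1.26.0 named in those notes. Neither genome build nor settings were given in the sources used here. Of 55385 gene IDs, 54487 were found in GENCODE M21 on GRCm38, which gave symbols and coordinates. Promoter sequences are from RefSeq on GRCm38.p6.

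The 32 count columns were summed in pairs to 16 libraries and rounded. In R 4.3.3, edgeR 4.0.16 tested 28597 genes that passed filterByExpr at a minimum count of 10, with TMM factors, 8 means of day and sex and 4 day effects of injury, so that the other days share the estimate of the spread (4 residual and 5.32 prior degrees of freedom). Libraries from the wound and the other side were paired by day and sex, though the labels give no animal identifier and the replicate numbers name only the summed columns. CPM uses TMM-scaled library sizes, and pair ratios add 1 CPM. Named genes were called, protein-coding, at a mean of at least 10 CPM, not predicted models, and separated between the sides, ranked by the smaller pair ratio, with 12 in each direction (351 rises and 33 falls met the rule). List examples were picked by size or role after their values were seen, and log2 changes are printed only where both libraries of the lower side reached 10 counts. The comparison, its members and the 34 lists were chosen with earlier results of these data known. On simulated counts with a dispersion of 0.1125 the test recovered 2 of 67 genes changed 2-fold and 8 of 67 changed 4-fold. It recovered 63 of 66 changed 16-fold, with 0 false calls. The changed genes were drawn from well-counted genes, all genes shared that dispersion, and the simulated effect was equal in both sexes. Genes with a larger spread, and changed genes with few counts, were not simulated. Alternatives were median-ratio factors, DESeq2 1.42.0, limma 3.58.1 on log2 TPM, other filters, no pairing, and pairs or libraries left out. The other deposited comparison tables and the normalized counts were not used. Values of some genes are not reported here.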

Additional observations from a re-analysis of the deposited data

Results flagged for a closer look

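In 5 lists the female and the male pair of day 4 had medians of opposite sign. None of these differences was tested, since each pair holds 1 library a side. Sterol synthesis genes had a median log2 ratio of 0.409 in the female pair and -1.463 in the male pair. Nuclear genes of the respiratory chain stood at 1.615 in the female pair and -0.395 in the male pair, and mitochondrially encoded genes at 0.697 and -1.815. Cyp51, of the first list, stood at 22.03 and 18.9 CPM at the wound and 16.04 and 138 CPM on the non-injured side. The opposite order held for immediate early genes, with -0.418 in the female and 0.958 in the male pair, and for markers of the oligodendrocyte lineage, with -0.37 and 0.965. Single members did not always follow the list medians. Atf3, a stress-induced member of the immediate early list, was higher at the wound in both pairs, at 610.1 and 302 against 354 and 22.1 CPM. Jun was lower at the wound in both pairs, at 715 and 474 against 2770 and 499 CPM. In the first 3 lists the male non-injured library also held the highest neuronal sum, 12069 CPM, and the highest mitochondrial share, 25.7%. Their part in these differences was not tested.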

How the results depend on the processing

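The 584 calls became 626 with median-ratio factors, where 357 rose and 269 fell (57.0% rises against 74.5%) and the median log2 change of all genes moved from -0.20 to -0.48. Without mitochondrially encoded genes 618 were called, without a filter 210, with a minimum count of 50 1145 (59.4% rises), with the earlier dispersion method of edgeR, added after seeing the data, 1344, and with DESeq2 1875. Limma on log2 TPM called 157 with a pseudocount of 1, 0 with 0.1 (2599 at an unadjusted p under 0.05) and 0 with 1 and no filter (3817). Leaving out a day 4 pair gave 36 to 445. With no replicate block 5 were called, and without single libraries as well 0 to 2. The 4 day 4 libraries alone gave 0, with or without the pair as a replicate block (3569 and 1920 at an unadjusted p under 0.05). Of the 125 genes printed with a log2 change, Slco2b1 and Abca9 changed direction, to 1.13 and 1.62, with no block and without the female non-injured library (and were at -3.96 and -5.53 without the female wound one), and no other gene did in any of these fits. Of the 125, 113 kept their call under median-ratio factors, 115 with a minimum count of 50, 125 without mitochondrial genes, 123 with the earlier dispersion method, 124 with DESeq2, 66 without a filter, 22 without the male pair, 80 without the female pair and 3 with no block. The cause of these changes was not tested. Counts of list members without each pair were added after seeing the data.

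For the day 4 effect against day 1, day 7 and the mean of the other days, the 0 calls became 119, 15 and 19 with the earlier dispersion method and 55, 6 and 4 with DESeq2, and leaving out a pair gave 0 to 1, 0 to 0 and 0 to 0. In the authors' deposited table of day 4, whose near-identical columns were separate samples, 3702 genes had an adjusted p under 0.05. It shared 566 with the 584, all in the same direction, which is 96.9% of the calls here and 15.3% of the authors' deposited table. The 4 libraries limit what can be called, so a gene not called here may still differ. On simulated counts of well-counted genes with a shared dispersion, 2.99% of 2-fold, 11.9% of 4-fold and 95.5% of 16-fold changes were recovered. Recovery for genes with few counts or a larger spread was not simulated.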

Other observations

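Of the 584 called genes 458 belonged to none of the lists, and those below were chosen after their values were seen. Of the oxidant-producing enzyme of phagocytes, Cybb, its catalytic chain, stood at 582 and 281 CPM at the wound against 39.9 and 6.98 CPM (log2 change 4.54, adjusted p = 0.0279), and Cyba, the partner chain, at 1013 and 1502 against 347 and 178 CPM (log2 change 2.31, adjusted p = 0.0288). Rac2, a GTPase that activates it, stood at 598 and 275 against 187 and 38.9 CPM (log2 change 2.24, adjusted p = 0.0324). Each of the 3 rose and had its lowest value in the male non-injured library. Of its cytosolic subunits, Ncf1 and Ncf4 were not called. Tspo, the outer mitochondrial membrane protein used as an imaging target for activated microglia, stood at 541 and 462 against 38.7 and 41.2 CPM (log2 change 3.65, SE 0.45, adjusted p = 0.0115). The female and male libraries of each side were nearly level for Tspo. Single genes of the actin skeleton that rose were Tmsb4x, which binds actin monomers (6845 and 14087 against 1634 and 2670 CPM, log2 change 2.23, adjusted p = 0.0115), Pfn1, profilin (1880 and 1751 against 554 and 334 CPM, log2 change 2.08, adjusted p = 0.0169), Cfl1, cofilin (3160 and 2281 against 747 and 760.4 CPM, log2 change 1.83, adjusted p = 0.0247), and Capg, a filament-capping protein (349 and 530.2 against 36.7 and 19.6 CPM, log2 change 3.99, adjusted p = 0.01204). Coro1a, coronin, was not called, at 1126 and 311 against 566 and 165 CPM. Lysosomal genes outside the list that rose included Gla, alpha-galactosidase (162 and 159.5 against 6.78 and 4.07 CPM, log2 change 4.901, adjusted p = 0.0164), and Grn, progranulin (9630 and 3888 against 3556 and 709 CPM, log2 change 1.95, adjusted p = 0.0247). Tlr2, a receptor for bacterial lipoproteins, stood at 1140 and 387 against 207 and 44.5 CPM (log2 change 2.79, adjusted p = 0.0222). Trem1, an amplifying receptor of myeloid cells, and F7, coagulation factor VII, stood at 25.8 and 23.2 and 17.4 and 26.04 CPM at the wound against 0.123 and 0.0775 and 0.0205 and 0.0388 CPM on the non-injured side.

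Of the falls, 20 were highest in the female non-injured library, the one with the highest microglial marker sum. Tmem119, 1 of those markers, is itself among the 20. The share of all genes tested that were highest in that library was not counted, so the count only describes the falls. Adgrg1, an adhesion receptor of the microglial lineage, stood at 347 and 38.8 CPM at the wound against 1482 and 241 CPM (log2 change -2.36, SE 0.33, adjusted p = 0.01701). Slco2b1, an organic anion transporter, stood at 1154 and 97.9 against 2801 and 251 CPM (log2 change -1.32, SE 0.27, adjusted p = 0.04401). Tlr12, a receptor for profilin-like proteins of parasites, stood at 17.6 and 0.875 against 80.2 and 8.76 CPM (log2 change -2.53, SE 0.52, adjusted p = 0.0443). In these 3 genes the female and the male pair gave similar ratios, and the female wound library lay above the male non-injured one. Cdh23, a cadherin of hair cells, and Abca9, a transporter, stood at 23.3 and 3.72 against 132 and 16.6 CPM (log2 change -2.36, adjusted p = 0.0442) and 197 and 7.26 against 644 and 28.7 CPM (log2 change -1.83, adjusted p = 0.0351), again with the sides overlapping between sexes.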
